A study of Mus musculus with 6 samples.

Results

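The Cyp4 fatty acid hydroxylases described here are 10 genes of cytochrome P450 family 4, Cyp4a10, Cyp4a12a, Cyp4a12b, Cyp4a14, Cyp4a31, Cyp4a32, Cyp4f13, Cyp4f14, Cyp4f15 and Cyp4v3. They were taken by gene symbol from the 22609 genes listed, and all 10 passed the filter on low counts, as did 12522 genes in all. RNA was sequenced from whole adult liver of C57BL/6 mice, with 3 wild type libraries and 3 libraries of Igfbp7-/- mice, which lack IGFBP7, a secreted binding protein of the insulin-like growth factor system, and were made by Cre-loxP with no Cre driver named in the labels. Exact age, sex, feeding state and hour of collection are not given in the labels, nor is whether the replicates were separate animals, so the p-values measure the spread between these samples. The series is titled for hepatocellular carcinoma, but both groups were labelled as adult liver and none as tumour.

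Cyp4 enzymes sit in the endoplasmic reticulum and hydroxylate the far end of a fatty acid chain, the omega carbon, with electrons from cytochrome P450 reductase. Dehydrogenases then turn the product into a dicarboxylic acid, which peroxisomes shorten. In mouse liver, Cyp4a10 and Cyp4a14 are classic targets of the fatty acid receptor PPARα and increase with fasting, Cyp4a12a and Cyp4a12b are male-biased, and Cyp4f enzymes also act on leukotriene B4 and on the side chain of vitamin K.

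The libraries held 16712568 to 22419411 gene counts, of which the 10 members made up 0.146% to 0.189%. Igfbp7 checked the labels, with 1438, 1705 and 1055 counts in wild type replicates 1 to 3 against 5, 2 and 9 counts in the knockouts. All 22 hepatocyte markers were present, each at 178 CPM (read counts scaled to library size) or more in every library. Of 11 kidney markers, a tissue that also expresses Cyp4a genes, 4 had no count and the list summed to 2.76 to 3.58 CPM in wild type against 0.982 to 1.56 CPM in Igfbp7-/- libraries, nearly all of it Lrp2 (2.60 to 3.46 against 0.873 to 1.33 CPM). Wild type replicate 1 stood apart in its clock genes, where Arntl was at 17.6 CPM and the remaining 5 libraries had 1.91 to 2.85 CPM. Without it, the log2 fold changes given below were -1.17 for Cyp4a12a, -1.02 for Cyp4a12b, 2.78 for Cyp4a14, 0.999 for Cyp4a10, 0.92 for Cyp4a31, 0.72 for Cyp4a32, 0.23 for Cyp4f13 and for Cyp4f15, 0.011 for Cyp4f14 and -0.31 for Cyp4v3, with 0 of the 10 called.

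The members lie in 2 clusters and at 1 further site, and near-identical copies limit which reads could be assigned. In assembly GRCm38, the 6 Cyp4a members lie on chromosome 4 between 115299046 and 115621602, all on the plus strand but Cyp4a14. The 3 Cyp4f members lie on chromosome 17 between 32685627 and 32947402, and Cyp4v3 lies on chromosome 8 from 45304944 to 45333216. Over aligned bases of their longest coding transcripts in GENCODE M21, Cyp4a12a and Cyp4a12b were 98.3% identical and Cyp4a10 was 97.2% identical to Cyp4a32 and 95.7% to Cyp4a31. Cyp4a14 was under 80% identical to every other Cyp4a member. Of all stretches of 100 bases in a transcript, 35.8% of Cyp4a12a and 36.2% of Cyp4a12b were also present in the other gene of that pair, 12.7% of Cyp4a10, 8.22% of Cyp4a31 and 20.1% of Cyp4a32 were shared within that trio, and none of Cyp4a14 or of the 3 Cyp4f members was shared with any gene. Cyp4v3 shared 5.77% with Gm45753, an annotated gene that overlaps it on the same strand. Reads from such stretches can be missing from the counts or be credited to the wrong copy.

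The RefSeq promoter table of assembly GRCm38.p6 matched 5 of the 10 members: Cyp4a32, Cyp4f13, Cyp4f14, Cyp4f15 and Cyp4v3. Cyp4a10, Cyp4a12a, Cyp4a12b, Cyp4a14 and Cyp4a31 were not matched. Each entry, of 250 bases before and 50 after a transcription start, was searched on both strands for AGGTCA (the half-site of nuclear receptors such as PPARα), for 2 copies of it 1 base apart with up to 2 mismatches, for TTCNNNGAA (the core of STAT5 sites) and for TTATGNAA (part of the D-box bound by clock output factors). The first was in none of the 8 entries of these genes and in 16.3% of all 32851 entries, and the paired form was in none and in 3.86%. TTCNNNGAA was in the Cyp4f13 entry alone and in 8.30% of all, and TTATGNAA was in 1 of 4 Cyp4f14 entries and in 3.38% of all. A match is a description of letters, and the lack of a match concerns these windows alone. The 250 bases before the start are shown for Cyp4a32, the 1 matched Cyp4a member and the member whose groups separated upward (plus strand, chr4:115600688-115600937), and for Cyp4f13, the entry with the TTCNNNGAA match in capitals (minus strand, chr17:32947362-32947611).
Cyp4a32: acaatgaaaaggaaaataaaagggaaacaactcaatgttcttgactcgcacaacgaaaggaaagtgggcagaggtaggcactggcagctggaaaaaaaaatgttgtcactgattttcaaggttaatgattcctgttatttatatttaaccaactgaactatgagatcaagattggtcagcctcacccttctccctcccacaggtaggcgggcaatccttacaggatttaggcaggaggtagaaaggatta
Cyp4f13: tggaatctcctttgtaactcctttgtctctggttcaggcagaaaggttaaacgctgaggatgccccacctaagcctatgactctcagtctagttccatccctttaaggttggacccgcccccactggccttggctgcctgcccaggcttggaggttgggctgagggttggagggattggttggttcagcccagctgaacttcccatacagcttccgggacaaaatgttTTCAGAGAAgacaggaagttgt

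Levels can be set between genes only per length, here as CPM per kilobase of the longest coding transcript. Cyp4v3 led in wild type livers at 207 ± 20 CPM per kb (SD, n = 3), followed by Cyp4f14 at 144 ± 17 and Cyp4a12a at 130 ± 14 (SD, n = 3 for each gene). The wild type values of Cyp4f14 and Cyp4a12a overlapped, so their order is not resolved. Cyp4f15 at 63.4 ± 8.4, Cyp4f13 at 44.9 ± 0.5 and Cyp4a12b at 37.4 ± 1.4 CPM per kb (SD, n = 3 for each gene) came next and did not overlap with their neighbours. The place of Cyp4f13 depends on the length used, since its longest coding transcript has 1752 bases and all its annotated exons together have 4441. Cyp4a12a and Cyp4a12b can also have lost reads from the stretches they share. Cyp4a10 at 14.8 ± 9.7, Cyp4a32 at 12.0 ± 1.1 and Cyp4a14 at 6.58 ± 4.38 CPM per kb (SD, n = 3 for each gene) overlapped in that order, and Cyp4a31 was lowest at 0.989 ± 0.226 (SD, n = 3). In knockout livers Cyp4v3 and Cyp4f14 were again the highest by mean, at 176 ± 15 and 142 ± 16 CPM per kb, with Cyp4f15 now at 72.9 ± 7.2 and Cyp4a12a at 60.0 ± 15.7 (SD, n = 3 for each gene). Cyp4a14 came next by mean at 55.8 ± 67.2 CPM per kb (SD, n = 3). In knockout replicate 3 it was at 131.9 CPM per kb, above Cyp4f14 at 129.5.

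Between the genotypes, the log2 fold changes of the Cyp4a genes ran from -1.11 to 3.08 and those of the Cyp4f genes and Cyp4v3 from -0.24 to 0.23, with none past the threshold. The male-biased pair Cyp4a12a and Cyp4a12b was lower in all 3 knockout livers, Cyp4a32 was higher in all 3, and Cyp4a14 and Cyp4a10 were above every wild type liver in 2 knockouts and within the wild type range in the other. By edgeR's quasi-likelihood test, 0 of the 10 members passed an adjusted p of 0.05 over all genes, where 27 of 12522 genes, or 0.216%, passed. At an unadjusted p under 0.05, 4 of 10 members were higher and 2 lower, against 8.1% of all tested genes higher (1014 of 12522) and 7.35% lower (920). DESeq2 called 3 of 10 (Cyp4a12a and Cyp4a12b lower, Cyp4a32 higher), against 3.54% of its 12292 tested genes. The groups did not overlap in 4 of 10 members, 1 higher and 3 lower, against 20.7% of all tested genes. The median log2 fold change of the members was 0.22, against 0.001 over all tested genes. In whole tissue, fewer cells of a type and less RNA per cell cannot be told apart.

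**Figure D1:**
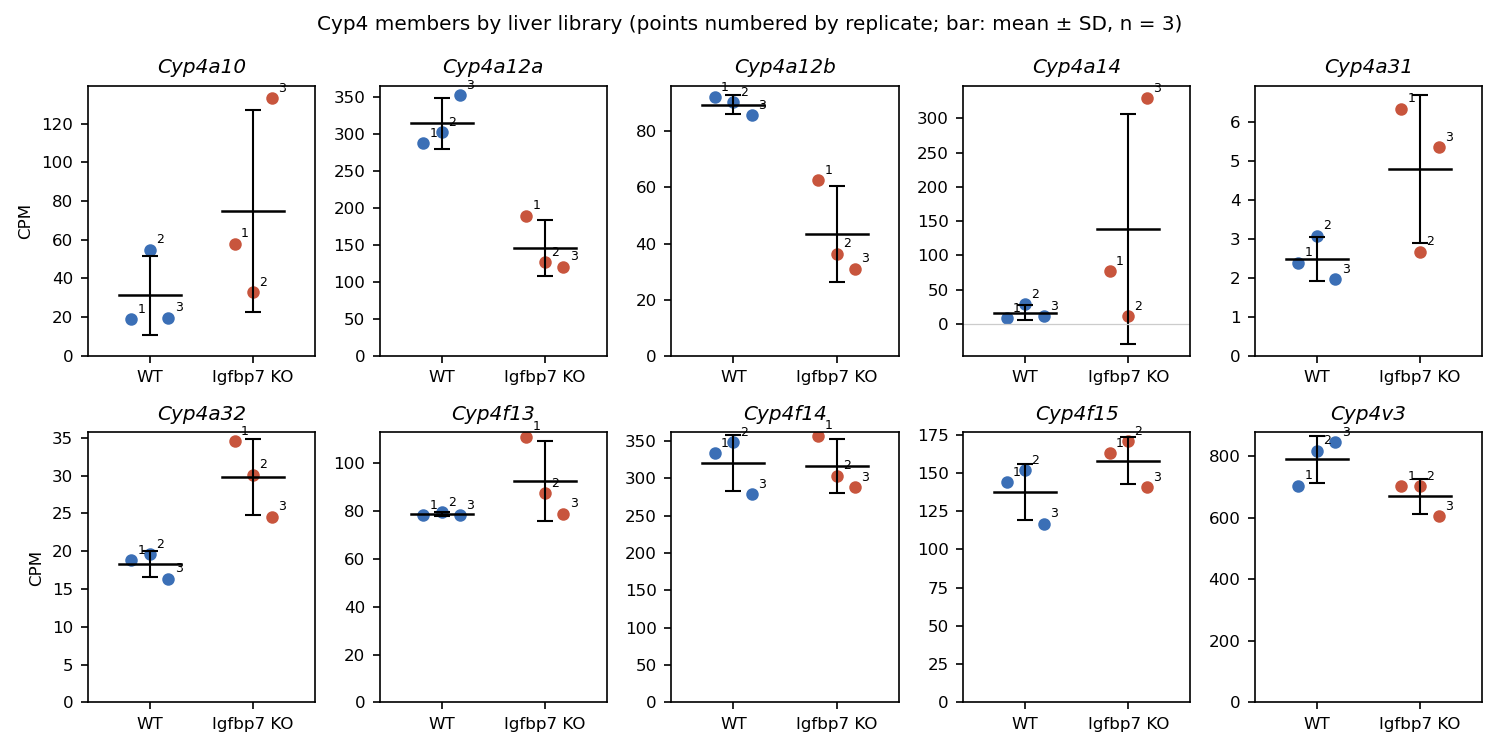
CPM (y axis, linear) of each Cyp4 member in the 3 wild type and 3 Igfbp7 knockout libraries, with points numbered by replicate and bars for mean ± SD (n = 3). Cyp4a12a, Cyp4a12b and Cyp4v3 lie below wild type in every knockout library and Cyp4a32 above, while Cyp4a14 spans 11.7 to 329 CPM among knockout livers.

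Cyp4a12a, the main arachidonic acid omega-hydroxylase of male mouse liver and kidney, stood at 287, 302 and 352 CPM in wild type libraries, against 189, 127 and 120 CPM in knockout replicates 1 to 3. The lowest wild type library was above the highest knockout library. The log2 fold change was -1.11 ± 0.18 (SE), a level 2.16-fold lower in the knockout, with an adjusted p of 0.0587 (edgeR). Its near-identical neighbour Cyp4a12b stood at 92.2, 90.5 and 85.8 CPM in wild type libraries, against 62.7, 36.5 and 31.1 CPM in Igfbp7-/- livers. The groups were again apart, with knockout replicate 1 nearest to wild type for both genes, and the log2 fold change was -1.04 ± 0.23 (SE, edgeR adjusted p = 0.0965).

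Because reads can be exchanged between these copies, their counts were also added. The sum went from 403 ± 31 CPM in wild type to 189 ± 55 CPM in Igfbp7-/- livers (SD, n = 3 per genotype), for a log2 fold change of -1.09 ± 0.19 (SE, edgeR adjusted p = 0.0607). Cyp4a12b made up 24.3% (95% exact binomial interval 23.3% to 25.4%), 23.0% (22.1% to 24.0%) and 19.6% (18.7% to 20.5%) of the pair's counts in wild type replicates 1 to 3. In knockout replicates 1 to 3 it made up 24.9% (23.7% to 26.1%), 22.4% (20.9% to 23.9%) and 20.5% (19.1% to 21.98%). The shares of the genotypes overlapped, and the intervals cover counting error only. Without knockout replicate 1 both genes were called, Cyp4a12a at -1.34 (edgeR adjusted p = 0.0119) and Cyp4a12b at -1.41 (edgeR adjusted p = 0.00626). Cyp4a12a was also called with upper-quartile scaling, total-count scaling, robust estimation or no filter on low counts. With a covariate for clock phase (mean log2 level of evening-phase minus morning-phase genes), Cyp4a12a was at -1.17 (edgeR adjusted p = 0.381), and without wild type replicate 1 it was also at -1.17 (edgeR adjusted p = 0.125). Over 17 alternatives its adjusted p ran from 5.95e-07 (DESeq2) to 0.381, and over 16 for Cyp4a12b from 0.000493 (DESeq2) to 0.575. Wild type replicates 1 to 3 had clock covariate values of -0.335, 2.42 and 2.93. Knockout replicates 1 to 3 had 3.17, 3.78 and 3.55, all above wild type. Because this covariate separates the genotypes, calls lost with it, here and below, cannot be assigned to clock phase rather than genotype.

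Cyp4a14, a PPARα target, varied most among the members. Its level was 8.88, 28.9 and 11.4 CPM in wild type against 76.7, 11.7 and 329 CPM in knockout replicates 1 to 3. Knockout replicate 2 lay within the wild type range, and replicate 3 was above every other library. The log2 fold change of 3.08 ± 0.99 (SE, edgeR adjusted p = 0.196) ranked 6 by size among the 12522 genes and did not pass, and it was 1.43 without knockout replicate 3 (edgeR adjusted p = 0.409, range over 17 alternatives 0.128 to 0.786), 3.77 without wild type replicate 2 and 2.19 with limma-voom. Between the lowest and highest knockout library the distance was 4.80 on the log2 CPM scale, against 1.69 among wild type libraries.

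Cyp4a10, also a PPARα target, stood at 19.2, 54.9 and 19.7 CPM in wild type libraries, against 58.0, 33.1 and 133 CPM in Igfbp7-/- livers. Wild type replicate 2 was above knockout replicate 2, so the groups overlapped. The log2 fold change was 1.25 ± 0.54 (SE, edgeR adjusted p = 0.318), 0.54 without knockout replicate 3 and 1.94 without wild type replicate 2. Within each genotype the highest library for Cyp4a10 was also the highest for Cyp4a14, namely wild type replicate 2 and knockout replicate 3. The size differed, since Cyp4a14 made up 31.6% (95% exact binomial interval 27.7% to 35.8%), 34.5% (32.3% to 36.8%) and 36.7% (32.6% to 40.9%) of the 2 genes' summed counts in wild type livers. In knockout replicates 1 to 3 the shares were 57.0% (55.1% to 58.8%), 26.1% (23.1% to 29.2%) and 71.2% (70.3% to 72.1%).

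Cyp4a32 and Cyp4a31, close copies of Cyp4a10, showed a smaller spread. Cyp4a32 stood at 18.8, 19.6 and 16.4 CPM in wild type libraries, against 34.6, 30.1 and 24.6 CPM in Igfbp7-/- livers. Every knockout library was above every wild type library, and the order among knockout livers was not that of Cyp4a10, since replicate 3 was the lowest. Its log2 fold change was 0.70 ± 0.14 (SE, edgeR adjusted p = 0.083). Cyp4a31 stood at 2.39, 3.09 and 1.96 CPM in wild type libraries, against 6.35, 2.67 and 5.35 CPM in Igfbp7-/- livers, with knockout replicate 2 inside the wild type range, and had a log2 fold change of 0.95 ± 0.32 (SE, edgeR adjusted p = 0.221). The summed counts of Cyp4a10, Cyp4a31 and Cyp4a32 gave 52.0 ± 22.2 CPM and then 109 ± 49 CPM (SD, n = 3 per genotype), for a log2 fold change of 1.07 ± 0.36 (SE, edgeR adjusted p = 0.207), with overlapping groups.

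**Figure D2:**
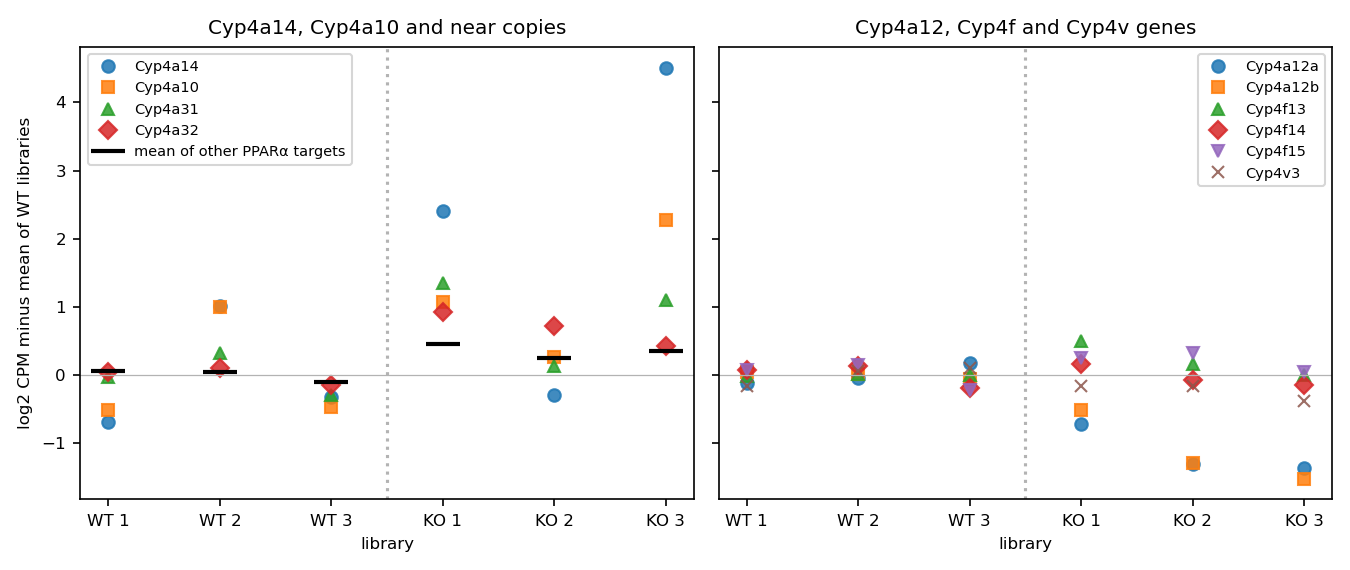
Log2 CPM of each Cyp4 member minus its wild type mean (y axis) in each library (x axis), with Cyp4a14, Cyp4a10, Cyp4a31 and Cyp4a32 on the left and the other 6 members on the right, and black bars for the mean of the other PPARα targets. Cyp4a14 and Cyp4a10 are highest in wild type replicate 2 and knockout replicate 3 of their groups. Cyp4a12a and Cyp4a12b lie near each other, least so in wild type replicate 3 and knockout replicate 1.

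Added up, the 6 Cyp4a members summed to 472 ± 38 CPM in wild type against 437 ± 202 CPM in Igfbp7-/- livers (SD, n = 3 per genotype), so the totals overlapped, while the share of the Cyp4a12 pair did not. On the scale of CPM per kilobase, Cyp4a12a and Cyp4a12b together gave 85.8%, 75.9% and 87.7% of the Cyp4a total in wild type replicates 1 to 3. They gave 55.6%, 62.1% and 22.7% in knockout replicates 1 to 3, below wild type in each. Cyp4a14 gave 1.95%, 5.41% and 2.22% in wild type against 16.4%, 4.31% and 47.8% in Igfbp7-/- livers. In knockout replicate 3, Cyp4a14 per kilobase was 2.65 times Cyp4a12a, whereas the ratio was 0.0300 to 0.0929 in wild type livers and 0.0895 and 0.393 in the other knockout livers.

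The Cyp4f members, which hydroxylate leukotrienes and other eicosanoids, had log2 fold changes of at most 0.23 in size. Cyp4f14, a leukotriene B4 hydroxylase of mouse liver, stood at 334, 349 and 278 CPM in wild type libraries, against 357, 303 and 288 CPM in Igfbp7-/- livers, with overlapping groups. Its log2 fold change was -0.019 ± 0.12 (SE, edgeR adjusted p = 0.96), and its sign changed when either wild type replicate 1 or 2 or knockout replicate 2 or 3 was left out. Cyp4f15 stood at 144, 152 and 117 CPM in wild type libraries, against 163, 171 and 141 CPM in Igfbp7-/- livers, a log2 fold change of 0.20 ± 0.12 (SE, edgeR adjusted p = 0.48). Cyp4f13 stood at 78.1, 79.6 and 78.3 CPM in wild type libraries, against 111, 87.5 and 79.0 CPM in Igfbp7-/- livers, a log2 fold change of 0.23 ± 0.12 (SE, edgeR adjusted p = 0.41). Knockout replicate 1 was the highest library for Cyp4f13 and Cyp4f14 and knockout replicate 2 for Cyp4f15. The 3 genes summed to 536 ± 56 CPM in wild type against 567 ± 62 CPM in Igfbp7-/- livers (SD, n = 3 per genotype).

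Cyp4v3, the mouse counterpart of the human gene CYP4V2 whose loss causes Bietti crystalline dystrophy of the retina, was the most abundant member. It stood at 705, 819 and 845 CPM in wild type libraries, against 704, 703 and 605 CPM in Igfbp7-/- livers. The groups did not overlap, but wild type replicate 1 and knockout replicate 1 differed by less than 1 CPM. The log2 fold change was -0.24 ± 0.12 (SE, edgeR adjusted p = 0.393).

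**Figure D3:**
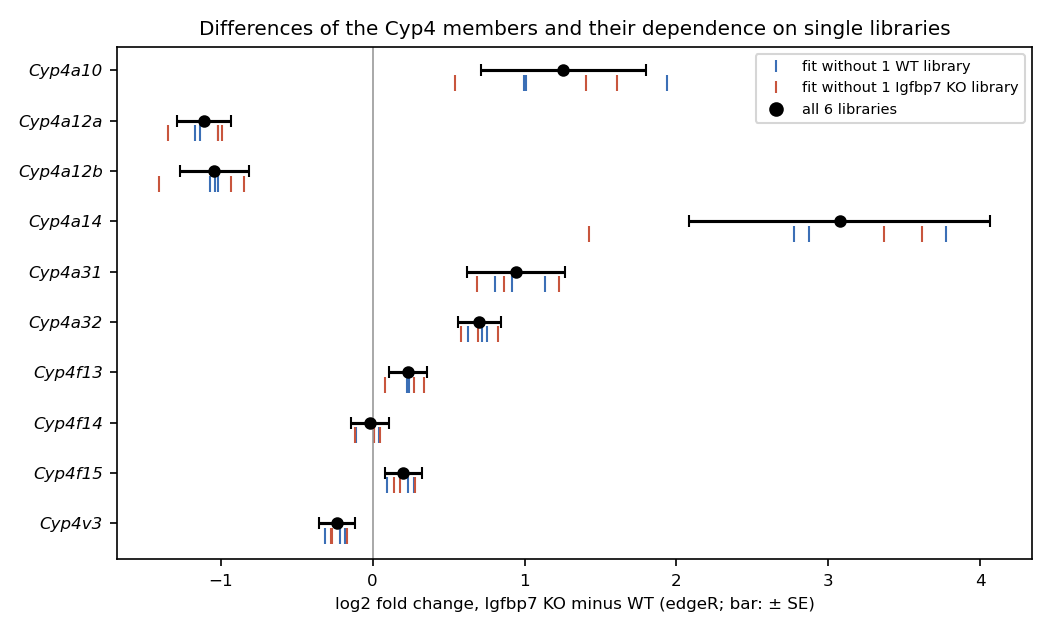
Log2 fold change of each Cyp4 member, Igfbp7 knockout minus wild type (x axis), as points with SE bars from all 6 libraries and ticks from fits that leave out 1 library. The estimate for Cyp4a14 moves from 3.08 to 1.43 without knockout replicate 3, while those for Cyp4a12a stay between -1.34 and -0.99.

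The family also holds genes that are not among the 10. Of 8 other Cyp4 genes found in the files, Cyp4b1, Cyp4f16, Cyp4f17 and Cyp4f18 were tested, 0 passed and 0 had an unadjusted p under 0.05 (edgeR), with log2 fold changes from -0.19 to 0.06. Cyp4b1, an enzyme better known from lung, was at 20.0 ± 0.7 CPM in wild type against 20.9 ± 0.2 CPM in Igfbp7-/- livers (SD, n = 3 per genotype). Cyp4f18, the leukotriene hydroxylase of neutrophils, had 3 to 14 counts per library. Cyp4x1 and Cyp4a29-ps had no count in any library.

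Among the partners of these enzymes, the gene for their electron donor was the exception. Por, cytochrome P450 reductase, was at 123, 223 and 208 CPM in wild type libraries, against 563, 526 and 617 CPM in Igfbp7-/- livers, and it rose with a log2 fold change of 1.62 (edgeR adjusted p = 0.0348). The call was lost without wild type replicate 2 (adjusted p = 0.0837), without knockout replicate 1, 2 or 3 (0.0642, 0.074 and 0.0604), with replicate number as a block (0.0585) and with the clock covariate (1.21, edgeR adjusted p = 0.206), over a range of 4.68e-13 (DESeq2) to 0.206. It was the 1 called gene of 5 tested electron donors, and Cyb5b, a cytochrome b5, was at -0.21 and Cyb5, another cytochrome b5, at 0.08, neither past the threshold. Of 24 tested genes for the steps after Cyp4 (alcohol and aldehyde dehydrogenases, peroxisomal import and beta-oxidation), 18 were higher and 6 lower (median log2 fold change 0.10), and 0 passed (6 higher and 1 lower with unadjusted p below 0.05, edgeR, against 8.1% and 7.35% of all tested genes). The lowest p among them belonged to Acot4, a peroxisomal thioesterase of dicarboxylic acids, with 10.2, 10.6 and 8.89 CPM in wild type against 20.5, 21.6 and 48.7 CPM in Igfbp7-/- livers (edgeR adjusted p = 0.0806). Pex11a, of peroxisome division, was at 0.40 and Abcd2, a peroxisomal fatty acid transporter, at 1.69 on the log2 scale, neither past the threshold.

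The other PPARα targets were mostly a little higher in the knockout. Of 45 tested, 41 were higher and 4 lower (median log2 fold change 0.23), with 0 past the threshold and 17 higher and 1 lower with unadjusted p below 0.05 (edgeR), where the shares of all tested genes were 8.1% and 7.35%. Averaged over the list, log2 levels minus the wild type mean were 0.46, 0.24 and 0.36 in knockout replicates 1 to 3 against -0.10 to 0.05 in wild type. On this average, knockout replicate 3, the highest for Cyp4a14 and Cyp4a10, was below replicate 1. Of the 4 list genes of lowest p, Acot3 and Acot4 were highest in knockout replicate 3, and Acot12 and Slc22a5 in replicate 2. Acot3, a peroxisomal thioesterase, was at 0.159, 0.608 and 0.173 CPM in wild type libraries, against 2.46, 3.98 and 22.5 CPM in Igfbp7-/- livers, with its peak also in knockout replicate 3 (edgeR adjusted p = 0.0921). Acot12, an acetyl-CoA thioesterase, was at 0.47 and Slc22a5, the carnitine transporter, at 0.44 on the log2 scale (edgeR adjusted p = 0.0904 and 0.0965). The lowest of the list was Pdk4 at -0.54, not past the threshold, which also stands on the list of genes that fasting raises. Ppara itself was at 363 ± 78 CPM in wild type against 522 ± 111 CPM in Igfbp7-/- livers (SD, n = 3 per genotype), with overlapping groups (edgeR adjusted p = 0.24). Med1, a coactivator subunit, was at 0.40 on the log2 scale (edgeR adjusted p = 0.121), and 0 of the 15 genes for PPARα and its partners passed, with 2 higher and 0 lower with unadjusted p below 0.05.

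Genes that fasting raises in liver had a median of 0.28 over 17 tested, with 15 higher, 2 lower and 0 past the threshold (1 higher and 1 lower with unadjusted p below 0.05, edgeR). Averaged as above, the list stood at 0.60, 0.23 and -0.0054 in knockout replicates 1 to 3, lowest in the library where Cyp4a14 was highest. Cpt1a, the carnitine palmitoyltransferase of mitochondria, was at 0.48, whereas G6pc, glucose-6-phosphatase, was at -0.48 and Pdk4, pyruvate dehydrogenase kinase, at -0.54 on the log2 scale, none past the threshold. Lipogenic genes that feeding raises had a median of 0.02 over 17 tested, 9 higher and 8 lower, with 0 past the threshold and 1 higher with unadjusted p below 0.05 (edgeR). Averaged in the same way, they stood at 0.08, -0.28 and 0.40 in knockout replicates 1 to 3, lowest in the library where Cyp4a14 was lowest among knockouts. Since feeding state is not given in the labels, its part in the values of Cyp4a14 and Cyp4a10 was not tested.

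**Figure D4:**
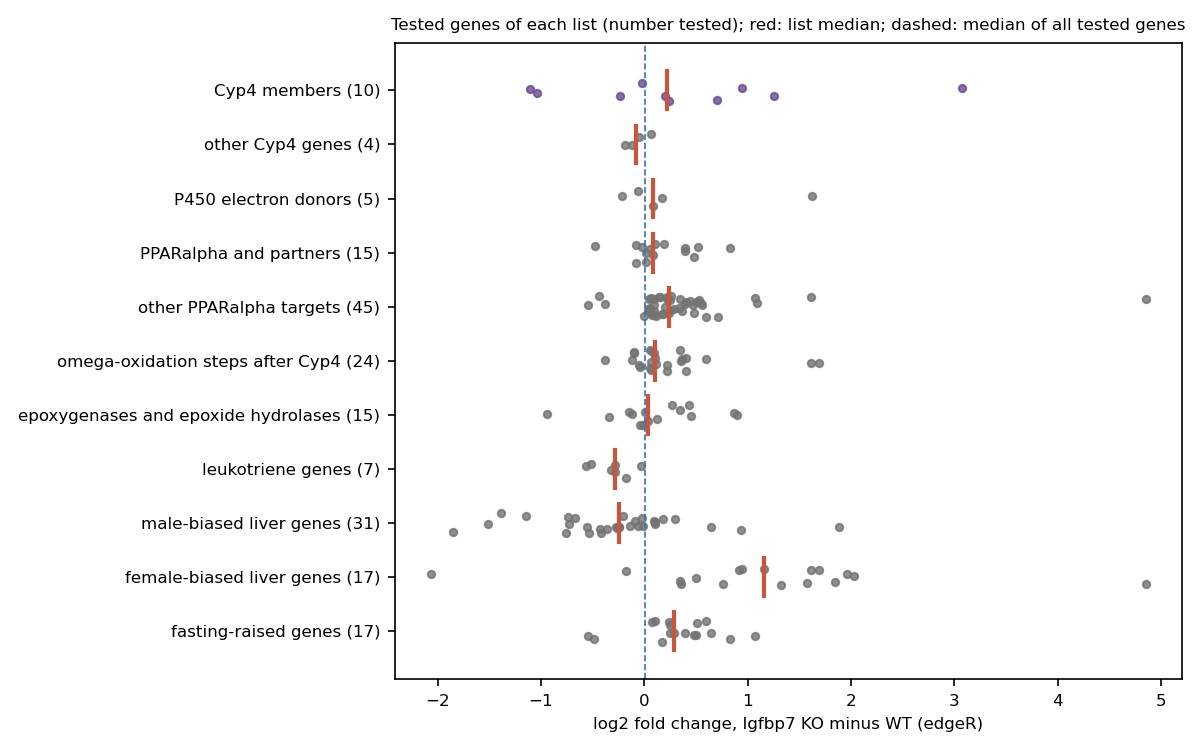
Log2 fold change, Igfbp7 knockout minus wild type (x axis), of the tested genes in each list (y axis, number tested in brackets), with list medians in red and the median of all tested genes as a dashed line. The Cyp4 members spread from -1.11 to 3.08, wider than the other Cyp4 genes at -0.19 to 0.06.

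Cyp4a12a and Cyp4a12b were set beside other sex-biased liver genes. Of 31 tested male-biased genes, 23 were lower and 8 higher at a median of -0.25, with 0 past the threshold and 1 higher and 6 lower with unadjusted p below 0.05 (edgeR), beside 8.1% and 7.35% of all tested genes. Averaged over the list, log2 levels minus the wild type mean were 0.13, -0.34 and 0.22 in wild type against -0.05, -0.21 and -0.86 in knockout replicates 1 to 3. Wild type replicate 2 was thus below knockout replicates 1 and 2 for the list, while its Cyp4a12a level was above theirs. Cyp2u1, a P450 that also hydroxylates long-chain fatty acids, was at 31.2, 35.3 and 36.1 CPM in wild type libraries, against 23.3, 21.8 and 15.6 CPM in Igfbp7-/- livers (edgeR adjusted p = 0.0837). Ugt2b38, a glucuronosyltransferase, was at -0.73 and Mup20, a major urinary protein, at -0.74 on the log2 scale, neither past the threshold. Of 32 female-biased genes listed, 15 had too few counts to test, and of the 17 tested 15 were higher, at a median of 1.15. Of these 17, 2 were called higher and 0 lower, with 10 higher and 1 lower with unadjusted p below 0.05 (edgeR), beside the same 8.1% and 7.35%. Averaged in the same way, the list stood at 0.13, 0.14 and -0.27 in wild type against 0.39, 0.99 and 1.59 in knockout replicates 1 to 3. Its highest library was knockout replicate 3, as for Cyp4a14 and Cyp4a10. Cyp17a1, a steroid hydroxylase, rose from 4.89, 3.83 and 4.62 CPM to 9.90, 19.5 and 22.4 CPM (edgeR adjusted p = 0.0479), and Tox, a nuclear factor, rose from 2.02, 1.31 and 1.21 CPM to 4.74, 7.80 and 6.04 CPM (edgeR adjusted p = 0.0356). With 1 library left out, both calls held without knockout replicate 1 alone, and without another library edgeR's adjusted p was 0.0725 to 0.195 for Cyp17a1 and 0.0604 to 0.17 for Tox. Cyp17a1 was also lost with upper-quartile scaling (0.0551), total-count scaling (0.0599), the filter of 1 CPM (0.0508), limma-voom (0.0771) and the clock covariate (0.457), and Tox with the clock covariate (0.295). Both were lost with replicate number as a block (edgeR adjusted p = 0.0941 for each). The lowest adjusted p of Cyp17a1 and of Tox came from DESeq2, at 1.67e-09 and 2.32e-08. Acot3 and Acot4 stand on this list and on that of the PPARα targets. The part of these differences in the values of Cyp4a12a, Cyp4a14 and Cyp4a10 was not tested. Of the growth hormone and STAT5 genes, 14 were tested and 0 passed (2 higher and 0 lower with unadjusted p below 0.05, edgeR). The 2 higher genes were Prlr, the prolactin receptor, at 0.76 and Socs2 at 0.48 on the log2 scale, and Stat5b was at -0.21.

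Other enzymes of arachidonic acid and its products were also counted. Epoxygenases, which compete for that substrate, were listed together with epoxide hydrolases. The list had a median of 0.03 over 15 tested, with 9 higher, 6 lower and 0 past the threshold (3 higher and 2 lower with unadjusted p below 0.05, edgeR, against 8.1% and 7.35% of all tested genes). Cyp2j9 was at 9.54 ± 1.61 CPM in wild type against 17.4 ± 4.3 CPM in Igfbp7-/- livers, and Cyp2c55 was at 5.65 ± 1.29 against 2.94 ± 0.58 CPM (SD, n = 3 per genotype), and neither passed. All 7 tested leukotriene genes were lower at a median of -0.28, with 0 past the threshold and 0 with unadjusted p below 0.05 (edgeR), and Lta4h, which makes leukotriene B4, was at -0.17. Of 5 tested vitamin K cycle genes 0 passed, and Ggcx, the gamma-carboxylase, was at -0.23 with an unadjusted p of 0.0451 (edgeR adjusted p = 0.313).

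By the profile over the 6 libraries, the genes nearest to Cyp4a12a among 7776 candidates of at least 10 CPM were Irf7, Ly6e, Cyp2u1, Cdh1 and Wdfy1, with root mean square differences of 0.233 to 0.248 in log2 CPM after centring. Cyp4a12b, left out of that search as a family member, was nearer at 0.159. For Cyp4f14 the nearest were Btd, Serpinf1, Ndufa10, 6430527G18Rik and Ppm1l (0.0431 to 0.0510), and for Cyp4v3 they were Synrg, Tmem214, Rpl36al, Dennd1a and Get4 (0.0407 to 0.0600). For Cyp4a14, added after its values were seen, the smallest distances outside the family were larger, with Abcd2 at 1.08 and Cyp7a1, the rate-limiting enzyme of bile acid synthesis, at 1.18. This distance grows with a gene's own range over the 6 libraries, 5.20 in log2 CPM for Cyp4a14 and 0.36 for Cyp4f14. Its size therefore cannot be compared between members as a measure of likeness. Among the members the distances were 0.577 between Cyp4a10 and Cyp4a31, 0.860 between Cyp4a10 and Cyp4a32 and 0.971 between Cyp4a10 and Cyp4a14, and 0.143 to 0.164 among the 3 Cyp4f genes.

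Markers of other cells were summed in each library, and 0 passed the threshold in any marker list. Of 23 Kupffer cell and other macrophage markers, 22 were lower, at a median of -0.66 with 0 past the threshold and 19 lower with unadjusted p below 0.05 (edgeR, 7.35% of all tested genes), and summed to 976 to 1072 CPM in wild type against 551 to 856 CPM in Igfbp7-/- livers, with none of the 23 at 0 in all libraries. Hepatocyte markers were at a median of 0.07 over 22, with 1 higher and 0 lower with unadjusted p below 0.05, and summed to 148713 to 170673 and 164346 to 186746 CPM. Evening-phase clock genes were higher in 10 of 10 at a median of 0.84, with 0 past the threshold and 6 higher with unadjusted p below 0.05 (edgeR, 8.1% of all tested genes). The 5 morning-phase clock genes had a median of -0.61, with 0 higher and 3 lower with unadjusted p below 0.05. T, NK and B cell markers summed to 14.9 to 17.9 CPM in wild type against 8.25 to 10.8 CPM in knockout livers. Cholangiocyte markers summed to 359 to 414 CPM against 235 to 304 CPM. Most of that sum was Krt18, Krt8 and Spp1, with wild type means of 159, 105 and 85.1 CPM. Their knockout means were 111, 80.2 and 48.1 CPM. Krt19, Krt7 and Epcam were each at 1.75 CPM or less in every library, so the sum hardly reflects them. List medians were -0.07 for sinusoidal endothelial, -0.14 for stellate, -0.64 for neutrophil (3 of 13 tested) and 0.57 for small intestine markers (3 of 10 tested), and -0.28 for immediate early and stress genes, with 0 past the threshold in each. Unadjusted p was under 0.05 (edgeR) for 1 of 18 endothelial, 3 of 17 stellate and 2 of 3 neutrophil markers, all lower. It was also under 0.05 for 2 of 3 small intestine markers, each higher. Of 14 immediate early and stress genes, 1 was higher and 2 lower at that p, beside 8.1% and 7.35% of all tested genes. The small intestine median was that of Apoa4, at 206 to 485 CPM. Fabp2 was at 57.1 to 72.6 CPM, Lgals4 at 0.327 to 1.75 CPM and the 7 untested genes at 0.474 CPM or less. Alignments at several positions, which are not in the gene counts, numbered 1.49 to 2.13 per gene count in wild type and 1.64 to 2.65 in knockout libraries, the highest in knockout replicate 2. The part of these differences in the Cyp4 values was not tested.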

How the data were processed

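RNA of 3 wild type and 3 Igfbp7 knockout livers was measured by sequencing of Illumina TruSeq libraries, per the labels' protocols. The values the authors deposited are raw counts of reads for each gene symbol. TopHat2 2.0.8b, HTSeq and CASAVA 1.8.2 appear in the submitters' processing notes, as do builds mm9 and hg19, with no role stated. Not given in the sources used here are the annotation, strand setting and read length. The 5 closing entries that name no gene were left out. Reads outside genes were 9.65% to 12.5% and ambiguous reads 0.594% to 0.662% of uniquely placed reads.

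Counts were filtered with filterByExpr (minimum count 10), scaled by TMM and tested with edgeR 4.0.16 in R 4.3.3 by a 2-sided quasi-likelihood test with genotype as the 1 term, adjusted by Benjamini-Hochberg over 12522 genes. The test was checked on simulated data. SEs come from the F statistic, CPM from TMM-scaled library sizes, and profiles from log2 CPM (prior count 2). Alternatives included DESeq2 1.42.0 and limma-voom 3.58.1. GENCODE M21 (GRCm38) gave transcript lengths, identity and shared stretches.

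All members were named. Each other list gave up to 4 genes of lowest p, and the member of highest mean CPM in each subfamily gave the 5 nearest profiles. The genes nearest to Cyp4a14, and the alternatives for Por, Cyp17a1 and Tox, were chosen after seeing the data. The members and lists were chosen with earlier results of these data known.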

Additional observations from a re-analysis of the deposited data

How the results depend on the processing

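The count of members past the threshold was 0 in the reported analysis. It was 1 with upper-quartile scaling, total-count scaling or robust estimation (Cyp4a12a each time), 3 with no filter or with DESeq2 (Cyp4a12a, Cyp4a12b and Cyp4a32), and 0 to 2 with 1 library left out, the 2 being Cyp4a12a and Cyp4a12b without knockout replicate 1. It was 0 with median-ratio size factors, a filter of 1 CPM in 3 libraries, limma-voom, the clock score, the replicate block and summed paralogs. Over all genes the 27 calls became 133 with no filter, 435 with DESeq2, 68 with robust estimation, 1 with the replicate block, 1 with the clock score, and 3 to 36 with 1 library left out. Values of the clock score did not overlap between the genotypes, so that fit cannot assign lost calls to clock phase rather than genotype. The cause of these changes in count was not tested.

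Among the members, the sign changed for Cyp4f14 alone, from -0.019 to 0.083 with the clock score and to 0.011, 0.043, 0.010 and 0.046 when wild type replicate 1, then 2, then knockout replicate 2, then 3 was left out (range over all 6 such fits -0.12 to 0.046). The labels do not say whether libraries with the same replicate number were paired. Deviations from the group mean correlated across genes at -0.08, -0.10 and -0.04 for same-numbered libraries and at -0.05 to 0.12 for the other pairs. Such deviations sum to 0 within each group of 3, so these values cannot decide whether there was a pairing. With the block 1 gene was called, with Por at an adjusted p of 0.0585 and Cyp17a1 and Tox at 0.0941 (edgeR). At 16712568 or more counts per library, Cyp4a31, at 34 to 134 counts, carries the largest counting error of the members.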
